A study of Xenopus tropicalis with 12 samples.

Results

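Regions of thyroid hormone receptor (TR) binding that lie at the start of a gene were examined in the intestine of Xenopus tropicalis tadpoles. Joining the overlapping peaks of 12 ChIP-Seq libraries, with 1 bp of overlap enough, gave 264370 regions. Of these, 15365 were kept because at least 1 condition had a peak there in each of its 3 libraries. A kept region was called a gene-start region when it overlapped the 1000 bp on either side of an annotated gene start, which 755 regions did (4.91% of the kept regions). The regions were found at 796 of the 13705 gene starts in the deposited lists (5.81%). The lists attach to each peak its nearest annotated features, so a gene start is known here only where a peak had it as such a neighbour, and starts far from any peak are not counted.

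The 4 conditions were TRα-/- intestine with T3, TRα-/- intestine without T3 (control), WT intestine with T3 and WT intestine without T3 (control). TRα-/- tadpoles carry a disrupted gene for TRα, the main receptor before metamorphosis, and WT tadpoles were siblings born to the same parents. All tadpoles were around stage 54, and the T3 groups were kept in 10 nM T3 for 18 h. Each condition was 1 ChIP DNA sample, made from the pooled intestines of several tadpoles with an antibody that recognizes both TRα and TRβ, and sequenced as 3 technical replicates. The spread between libraries, and every p-value that rests on it, therefore measures library preparation and sequencing, and neither animals nor separate immunoprecipitations. No input or IgG library entered the peak calls.

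TRs are nuclear receptors that bind, usually as heterodimers with the retinoid X receptor, to T3 response elements made of repeated hexamers. They can sit on such elements with or without hormone. The unliganded receptor is known to recruit corepressor complexes, and binding of T3 exchanges these for coactivators, so that a bound gene can be held down before metamorphosis and turned on by the hormone. T3 response elements have been found both in promoters and in distant enhancers of frog genes, and TRβ is itself encoded by a gene with such an element near its start.

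The lists held between 17414 peaks, in TRα-/- T3 replicate 1, and 63333 peaks, in WT control replicate 3. Sequencing depth is unknown, since no read totals come with the lists. The background level that the peak caller assumed, recovered from pileup and fold enrichment, was 0.149 to 0.297 fragments in TRα-/- T3, 0.118 to 0.260 in TRα-/- control, 0.251 to 0.664 in WT T3 and 0.0898 to 0.426 in WT control. Its part in the differences between conditions was not tested. A listed peak had a pileup, the number of fragments stacked at its summit, of at least 2 to 4 depending on the library, so "no peak" means under what could be called in that library. The symbol of the disrupted gene, thra, occurs nowhere in the lists, so the genotype labels could not be checked on it.

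Most gene-start regions lay beside the start and not over it. The region covered the annotated start in 83 of 755 cases, and 138, 213, 181 and 140 regions were 1 to 250, 251 to 500, 501 to 750 and 751 to 1000 bp away. The summit, taken as the median over libraries, was upstream of the start in 521 regions (69.0%) and at or downstream of it in 234. The median summit position was -643 bp, and the median distance from the start was 928 bp in either direction. In 335 regions the summit itself was more than 1 kb away, because a region counted as soon as its edge came within that distance. Summits within 250 bp of the start were found in 57 regions (7.55%). The regions just inside the 1 kb limit were those of wdr89, 997 bp away with peaks in 7 libraries, and tbc1d10b, 1000 bp away with peaks in 10 libraries. Just outside it lay those of LOC100158544 and LOC100487969, both 1001 bp away, with peaks in 12 and 10 libraries. Those of LOC100494770 and atg16l1, both 1003 bp away, had peaks in 6 and 12 libraries.

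**Figure D1:**
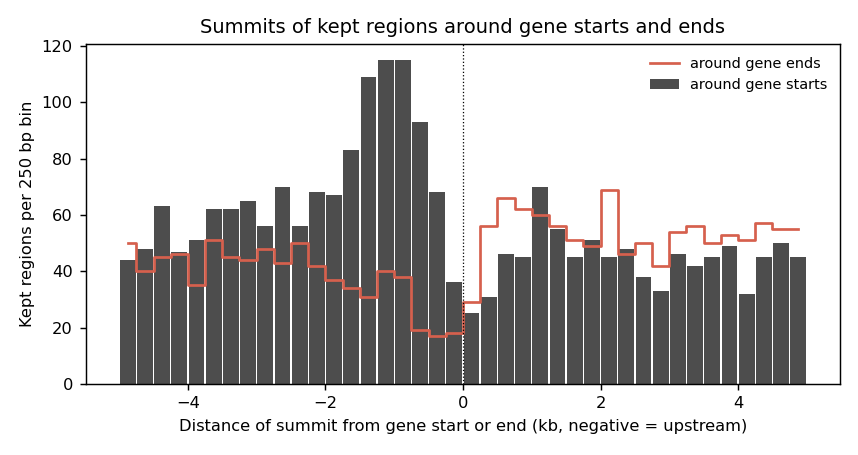
Number of summits of kept regions in each 250 bp bin from 5 kb upstream to 5 kb downstream of a listed gene start (bars) or of the end of the same genes (line), with the distance in kb on the horizontal axis. A summit counts once for every start or end within reach. Summits reach 115 per bin between 1250 and 751 bp upstream of the start and fall to 36 in the bin just before it and 25 in the bin just after it.

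Counted over all kept regions, summits peaked upstream of gene starts and were scarce at the start itself, as the profile of summits shows. In this profile a summit counts once for every start or end within reach, so 1 region can count several times. There were 115 summits in each of the 2 bins between 1250 and 751 bp upstream, 36 in the last 250 bp before the start and 25 in the first 250 bp after it, against 44 in the bin farthest upstream, 5 kb away. Downstream, the count came back to 70 at 1000 to 1249 bp. Around the ends of the same genes the profile differed: 18 summits lay in the last 250 bp of the gene, 29 in the first 250 bp after it, and 755 kept regions came within 1 kb of a start, against 429 within 1 kb of an end. Because a start is listed only where it neighbours a peak, these counts depend on how the lists were made, and how far was not tested. The dip at the start was seen in the peak lists of single libraries too. Peaks with a summit within 250 bp of a start numbered between 0.593 times, in TRα-/- T3 replicate 1, and 0.874 times, in TRα-/- T3 replicate 2, those with a summit 750 to 1000 bp away, and the ratio was under 1 in 12 of 12 libraries. This ratio was chosen after the profile was seen and was not tested.

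By the overlap rule used, the width of gene-start regions was like that of the rest. A wide region reaches the 1 kb limit more easily, so this likeness depends on the rule. With midpoints within 1 kb instead, the median peak width within a library was on average 84.0 bp smaller at gene starts than in other kept regions. Their median width was 885 bp, with quartiles of 659.5 and 1231.5 bp and a range of 177 to 7426 bp, against a median of 887 bp for the other 14610 kept regions. Of the 755 regions, 616 had a protein-coding gene at the nearest start, and 50 had a tRNA gene by its symbol. A single start had 1 region in 774 cases and 2 regions in 22, and 30 regions reached 2 or more starts. Many of these 30 were tRNA clusters, but some lay between protein-coding neighbours such as flii, an actin-remodelling protein, and mief2, a mitochondrial fission factor.

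Counted over whole chromosomes, starts of tRNA genes carried regions more often than other starts, though not near chromosome ends, and held them closer. Of 527 tRNA gene starts listed, 104 had a region (19.7%), against 692 of 13178 other starts (5.25%) and 603 of 11272 protein-coding starts (5.35%). A region was counted at every start it reached, so 1 region in a tRNA array could count many times. By nearest start, 50 regions belonged to the 527 tRNA starts and 705 to the 13178 other starts. Regions nearest to a tRNA gene covered its start in 23 of 50 cases (46.0%) and had a median summit position of -14.5 bp, whereas other gene-start regions covered the start in 60 of 705 cases (8.51%) and had a median of -668 bp. Position was taken from the nearest start, so dense tRNA arrays shorten it by construction. How far was not tested. The strongest was a region of 177 bp at a proline tRNA gene (trnap-cgg, chr3:131794174-131794350, Xenbase v9.1, summit 617 bp downstream of the start). Its pileup was 527, 677 and 829 in TRα-/- T3 libraries, 364, 638 and 658 in TRα-/- control, 1314 and 1816 in the first and second WT T3 libraries, where the third listed no peak, and 1066, 1691 and 2321 in WT control. It was named after its values were seen. Its median rank was 5 over the 11 libraries that had it, where rank 1 is the peak with the smallest p-value of a library. A tandem array of glycine tRNA genes on chromosome 5 (trnag-ccc) had a region of 4281 bp that reached 11 starts (chr5:123994248-123998528) and one of 4051 bp that also reached 11 (chr5:123977001-123981051), both with a peak in all 12 libraries. Genes of this kind are near-identical copies, so reads may have been placed on the wrong copy, and the values of single tRNA regions are uncertain. Without starts of tRNA and rRNA genes, counted after the values were seen, 705 gene-start regions were left.

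Gene starts near the ends of chromosomes carried a region far more often than those in the middle. An end was taken as the origin of the chromosome coordinates or the highest position in the lists. Within 2 Mb of an end, 152 of 732 starts had a region (20.8%). The share was 15.3% from 2 to 5 Mb, 11.6% from 5 to 10 Mb, 6.02% from 10 to 20 Mb, 3.19% from 20 to 50 Mb and 1.16% beyond 50 Mb. The order was the same without tRNA genes, from 21.1% of 698 starts in the outer 2 Mb to 1.05% of 3230 starts beyond 50 Mb. Starts of tRNA genes did not follow it. Their share was 14.7% of 34 in the outer 2 Mb and 7.53% of 93 from 2 to 5 Mb, where other starts had 21.1% and 16.1%. From 5 Mb inward tRNA starts had the higher share in each class, up to 32.8% of 137 against 2.36% from 20 to 50 Mb. The other kept regions also crowded toward the ends: 157 of 755 gene-start regions (20.8%) lay in the outer 2 Mb, against 16.3% of the other kept regions, and 4.64% lay beyond 50 Mb, against 6.56%. By chromosome, 12.1% of starts on chromosome 10 had a region and 3.90% of starts on chromosome 1.

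**Figure D2:**
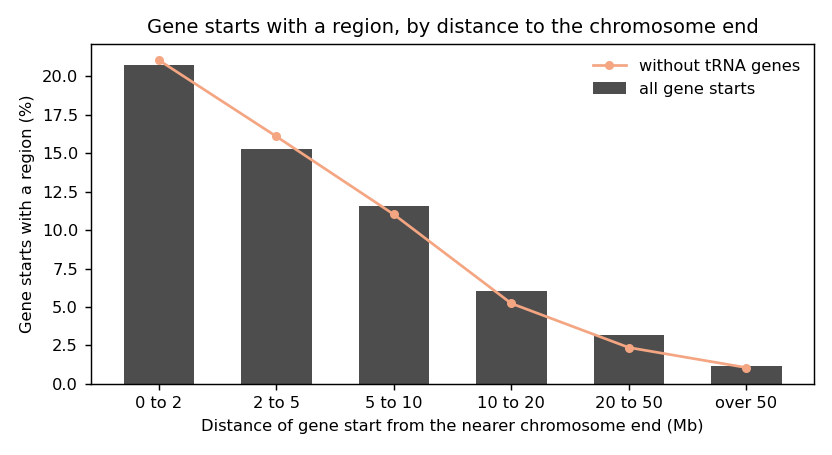
Percent of listed gene starts with a gene-start region (vertical axis), in 6 classes of distance from the nearer chromosome end in Mb (horizontal axis), for all starts (bars) and without tRNA genes (line). The share is 20.8% in the outer 2 Mb and 1.16% beyond 50 Mb.

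The gene-start regions with a peak in every library and those complete in WT T3 alone were the 2 largest classes. Complete sets of 3 peaks were seen at 288 of 755 regions in TRα-/- T3 (38.1%, against 39.8% of all kept regions), in 368 in TRα-/- control (48.7%, against 48.2%), in 613 in WT T3 (81.2%, against 83.5%) and in 426 in WT control (56.4%, against 58.1%). These shares follow from the same presence of peaks that chose the regions and are given as a description. All 12 libraries had a peak in 197 regions (26.1%, against 25.7% of all kept regions). A further 197 had 3 of 3 peaks in WT T3 and in no other condition, as had 3692 of all 15365 kept regions. The classes of WT control alone, TRα-/- control alone and TRα-/- T3 alone held 70, 43 and 13 regions. These were 9.27%, 5.70% and 1.72%, against 7.90%, 4.25% and 1.52% of all kept regions. In 59 regions there were 3 of 3 in both WT conditions and in neither TRα-/- condition (7.81%, against 9.86%). Of the 83 regions over a start and the 672 beside one, 26.5% and 39.6% were complete in TRα-/- T3, 39.8% and 49.9% in TRα-/- control, 80.7% and 81.3% in WT T3, and 48.2% and 57.4% in WT control.

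Within a library, gene-start regions differed little from the other kept regions. A peak was present in 1.89 percentage points fewer of them on average, lower in 11 of 12 libraries, which is a description since presence chose the regions. Their median percentile rank was 1.45 points lower, toward stronger peaks, in 11 of 12 libraries (exact sign-flip permutation test over 12 libraries, two-sided, p = 0.000977, adjusted p = 0.00146 over 3 measures). A rank exists only where a library had a peak, so regions without one drop out of each median. Presence chose the regions, so this p-value cannot decide whether gene-start regions are stronger. Peak width differed by -4.58 bp (exact sign-flip permutation p = 0.275). Over means of the 4 ChIP samples the rank difference gave an exact permutation p of 0.125, the smallest that 4 samples allow. With a stricter list (-log10 q at or above 5) the presence turned round, to 1.08 points more in gene-start regions, and the rank difference shrank to -0.17 points (exact permutation p = 0.807).

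The share of a library's own peaks that lay within 1 kb of a gene start was higher with T3 in both genotypes and lower in TRα-/- than in WT. It was 3.72%, 3.56% and 3.60% in TRα-/- T3 libraries and 3.40%, 3.42% and 3.33% in TRα-/- control libraries. In WT it was 3.95%, 4.08% and 4.03% with T3 and 3.45%, 3.59% and 3.58% without. No 2 groups compared overlapped. The means were 3.63 ± 0.083% in TRα-/- T3 and 3.38 ± 0.044% in TRα-/- control (SD, n = 3 libraries each), a difference of 0.245 points. They were 4.02 ± 0.069% in WT T3 and 3.54 ± 0.078% in WT control, a difference of 0.483 points. TRα-/- control minus WT control was -0.156 points, and TRα-/- T3 minus WT T3 was -0.394 points. Each of the 4 exact permutation tests (two-sided) gave p = 0.1, adjusted p = 0.1, the smallest that 3 libraries against 3 allow, so none could pass 0.05. With the same number of strongest peaks taken from each library, the difference between T3 and control was 0.0153 points in TRα-/- (exact permutation p = 0.9) and 0.433 points in WT (exact permutation p = 0.2), and that between TRα-/- and WT was -0.823 points with T3 and -0.406 points without.

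**Figure D3:**
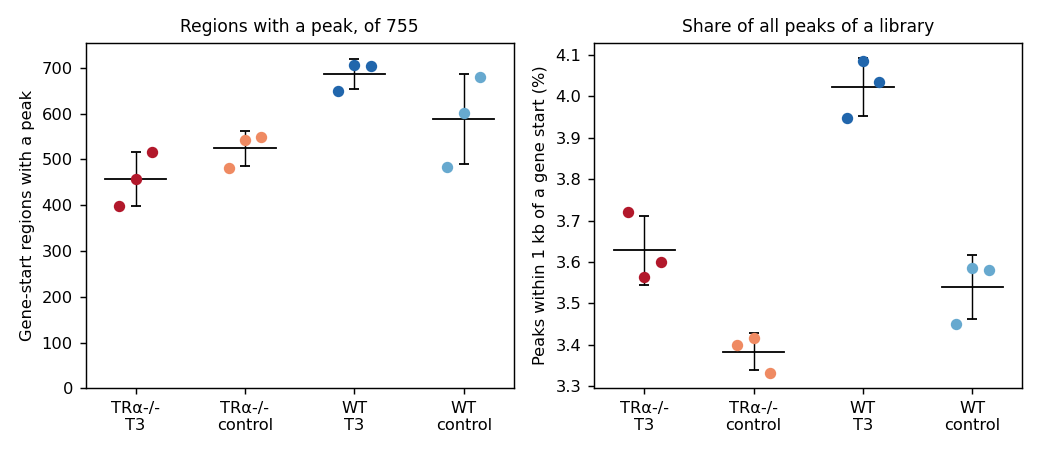
Left, number of the 755 gene-start regions with a peak in each library; right, percent of all peaks of each library that lie within 1 kb of a gene start (axis not from 0). Points are libraries, the horizontal line is the mean and the error bar the SD of 3 libraries, for TRα-/- T3, TRα-/- control, WT T3 and WT control; the counts run from 398 in TRα-/- T3 replicate 1 to 706 in WT T3 replicate 2, and the share in WT T3, 3.95% to 4.08%, lies above that of every other library.

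Between 1 and 87 of the 755 gene-start regions were fully separated by called peaks, depending on the comparison and direction. Some shares were near those of all kept regions and others were higher, such as 4.11% against 2.72% toward T3 in WT. The differences in share were not tested. A region was counted as separated when all 3 libraries of one group and none of the other had a peak. Between TRα-/- T3 and TRα-/- control, 6 regions were separated in the direction of T3 (0.795%, against 0.625% of all kept regions) and 20 in the direction of control (2.65%, against 2.15%). In WT T3 against WT control, 31 were separated in the direction of T3 (4.11%, against 2.72%) and 6 in the direction of control (0.795%, against 0.84%). In TRα-/- control against WT control, 8 had peaks only in TRα-/- (1.06%, against 0.69%) and 32 only in WT (4.24%, against 3.54%). Between TRα-/- T3 and WT T3, 1 had peaks only in TRα-/- (0.132%, against 0.156%) and 87 only in WT (11.5%, against 9.81%). The 2 highest background levels were those of WT T3 replicates 2 and 3, the 2 shortest lists those of TRα-/- T3 replicates 1 and 2, and their part in these counts was not tested. With the same number of strongest peaks taken from each library, 37 of 525 regions were separated toward WT T3 from TRα-/- T3. This compares with 562 of all 10319 kept regions. Without that limit the counts were 87 of 755 and 1507 of 15365. Leaving out a library also lowers the requirement from 3 peaks to 2, and the counts rose whichever replicate number was left out.

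The genotypes were fully separated, with and without T3, at few sites. A peak in 6 of 6 WT libraries and in 0 of 6 TRα-/- libraries was found at 6 gene-start regions, those of tmem171, LOC108645628, cdk8, gpcpd1, zbtb45 and slc25a39 (75 of all kept regions, 0.488%), and the reverse at 0 (1 of all kept regions). No gene-start region had peaks in 6 of 6 T3 libraries and 0 of 6 control libraries, or the reverse (4 and 2 of all kept regions).

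The strongest of the 6 was at cdk8, which encodes the kinase of the Mediator complex that links transcription factors to RNA polymerase II. The region (chr2:152840260-152841012) lay upstream, with its summit at -934 bp. It had no peak in the TRα-/- libraries, and its pileup was 32, 75 and 73 in WT T3 libraries and 11, 28 and 27 in WT control libraries. WT T3 values were above all WT control values, although pileup is not scaled to depth. At tmem171, a membrane protein gene, the region lay 719 bp downstream of the start, in the gene (chr1:166709303-166709827), with 19, 24 and 33 fragments in WT T3 and 26, 38 and 47 in WT control. The regions of zbtb45, a zinc finger protein gene, and gpcpd1, which encodes a glycerophosphocholine phosphodiesterase, covered the start itself, with summits at -12 and -141 bp. At zbtb45 the pileup was 12, 20 and 34 in WT T3 and 5, 15 and 12 in WT control. At gpcpd1 it was 19, 12 and 14 in WT T3 and 5, 11 and 13 in WT control. The region of slc25a39, a mitochondrial glutathione carrier, was weak, with 3, 6 and 13 fragments in WT T3 and 3, 6 and 5 in WT control.

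Other regions were absent from TRα-/- control and strong in WT control. At pitx1, a homeodomain factor of hindlimb and pituitary, the region ran into the start (chr3:16854892-16855360, summit at -249 bp). Its pileup was 3 in the one TRα-/- library with a peak, T3 replicate 2, against 21, 39 and 48 in WT T3 and 26, 91 and 117 in WT control. At prim2, which encodes a subunit of the primase that begins DNA strands, a region of 177 bp lay 1016 bp upstream by its summit. It had no peak in TRα-/-, 14 and 29 fragments in the first and second WT T3 libraries with none in the third, and 22, 55 and 63 in WT control. At postn, which encodes the matrix protein periostin, TRα-/- T3 had a peak of 8 fragments in replicate 3, TRα-/- control had none, WT T3 had one of 12 in replicate 2, and WT control had 6, 19 and 38. In the T3-treated intestine, nlrx1, a mitochondrial protein of innate immunity, had no peak in TRα-/- and 17, 26 and 14 fragments in WT, and without T3 it had 8 in WT control replicate 1.

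**Figure D4:**
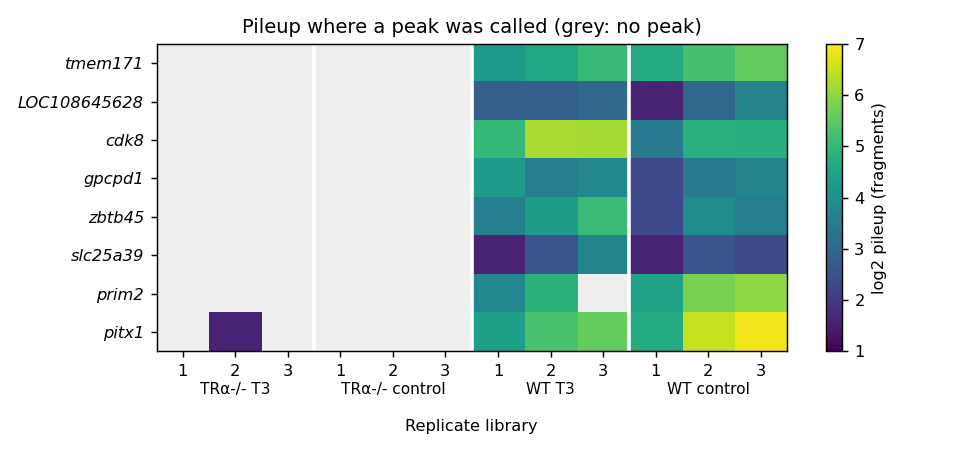
Pileup on a log2 scale (colour, in fragments) at 8 gene-start regions, 1 row each, in the 12 libraries, 1 column each, ordered TRα-/- T3, TRα-/- control, WT T3 and WT control. Grey cells had no peak; the first 6 rows have a peak in all 6 WT libraries and in no TRα-/- library, prim2 lacks one in WT T3 replicate 3, and pitx1 has one of 3 fragments in TRα-/- T3 replicate 2.

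Regions separated toward TRα-/- within 1 treatment had low pileups there, and most also had a peak in the other WT condition. In TRα-/- control against WT control they included slc30a1, a zinc exporter, with 4, 8 and 6 fragments in TRα-/- control, wdr81, an endosomal protein, with 6, 7 and 15, dfnb31, the scaffold protein whirlin, with 3, 3 and 5, scamp1, a secretory carrier protein, with 3, 7 and 10, and fbxo46, an F-box protein, with 4, 4 and 4. None of these had a peak in WT control. All but fbxo46 had at least 1 peak in WT T3. These had 7 and 8 fragments at slc30a1, 4 and 11 at wdr81, 10 and 6 at dfnb31, and 6 at scamp1. In TRα-/- T3 against WT T3 the single such region was at npc1l1, the sterol transporter of the intestinal lining, with 4, 3 and 4 fragments in TRα-/- T3, none in TRα-/- control and WT T3, and 8 in WT control replicate 3.

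Among the 31 regions separated toward T3 in WT were those of aurkb, fut8, mad2l1bp, eml4 and fam180a. At aurkb, the mitotic Aurora B kinase, a region 1255 bp downstream of the start by its summit (chr3:131767148-131767830) had 10, 14 and 7 fragments in WT T3, none in WT control, 5 in TRα-/- T3 replicate 1 and none in TRα-/- control. A neighbouring region upstream of the same start had 7, 9 and 14 fragments in WT T3, against 4 and 8 in WT control replicates 2 and 3, and 3 and 7 in TRα-/- control replicates 1 and 3. At mad2l1bp, which silences the spindle checkpoint, WT T3 had 6, 13 and 21 fragments, WT control none and TRα-/- T3 replicate 1 had 5. At eml4, a microtubule-binding protein, WT T3 had 5, 7 and 16, WT control none and TRα-/- control replicate 3 had 13. At fut8, the fucosyltransferase of N-glycan cores, WT T3 had 5, 11 and 14 fragments and no other library had a peak. At fam180a WT T3 had 10, 12 and 13, with none in WT control, 8 in TRα-/- T3 replicate 3, and 13 and 8 in TRα-/- control replicates 2 and 3. In the direction of WT control, the regions of atn1, a corepressor, dhfr, the dihydrofolate reductase of nucleotide synthesis, and ago1, an Argonaute protein of RNA silencing, had no peak in WT T3 and 2 to 10 fragments in WT control. WT control replicate 3, the library with the most peaks, was also left out, which asks for 2 WT control libraries instead of 3. Then 84 of 802 regions were separated toward T3 and 22 toward control (1348 and 504 of all 16247 kept regions). The part of that library was not told apart from the looser requirement.

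Of the regions separated between TRα-/- T3 and TRα-/- control, 6 were in the direction of T3 and 20 in that of control (96 and 331 of all kept regions). At the stricter q there were 5 and 2 of 356 (70 and 101 of all 7297 kept regions). Equal numbers of peaks gave 10 and 9 of 525 (182 and 135 of 10319). Without TRα-/- T3 replicate 1 there were 34 and 30 of 799 (585 and 483 of 16321). At the stricter q the order turned among gene-start regions but not among all kept regions. In the direction of T3 were slc13a4, a sulfate transporter, with 7, 13 and 15 fragments in TRα-/- T3 and none in TRα-/- control, mien1 with 4, 5 and 3, ypel5 with 9, 5 and 6, npc1l1 and tmed1, a cargo protein of Golgi vesicles, with 6, 4 and 4. The slc13a4 region also had 18 fragments in WT T3 replicate 2, and 7 and 19 in WT control replicates 1 and 3. A further region of slc13a4 (chr3:556203-558037) had a peak in every library. The mien1 region had more in WT, with 8, 33 and 30 fragments in WT T3 and 11 in WT control replicate 3. A further region of mien1 (chr10:2886213-2886587) was complete in WT control and had no peak in TRα-/-. In the direction of control were stx5, a vesicle fusion protein of the Golgi, with no peak in TRα-/- T3 and 5, 8 and 9 fragments in TRα-/- control, isoc2 with 4, 7 and 9, acvr2a, an activin receptor, with 5, 6 and 8, fgf19, an intestinal hormone of bile acid control, with 2, 6 and 10, and c11orf49 with 4, 4 and 4. The acvr2a region was present in all 3 WT T3 libraries, with 8, 8 and 13 fragments, and in all 3 WT control libraries, with 2, 5 and 15. The fgf19 region had 11, 13 and 10 fragments in WT T3 and 14 in WT control replicate 3. At isoc2 there were 4 and 8 in WT T3 replicates 1 and 3, and 31 in WT control replicate 3.

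Of the gene-start regions that every library had, 7 passed a test of height in some comparison. The pileup of the strongest peak was compared as log2(pileup + 1), centred on the median of each library, with limma over the 3944 regions that every library had, of which 197 were gene-start regions. Regions lost in any library cannot enter this comparison. Between TRα-/- T3 and TRα-/- control, 2 of 197 were higher (1.22% of all regions tested) and 1 was lower (0.406%) at an adjusted p under 0.05. In WT T3 against WT control, 0 were higher (0% of all regions, with 4 at an unadjusted p under 0.05) and 1 was lower (0.127%). In TRα-/- control against WT control, 0 were higher (0.583%, with 18 at an unadjusted p under 0.05) and 4 were lower (1.5%). Between TRα-/- T3 and WT T3, 1 was higher (0.431%) and 3 were lower (0.685%). The median log2 difference of the 197 regions was between -0.02 and 0.06 in the 4 comparisons, and that of all regions tested between 0.00 and 0.04. The response to T3 differed between the genotypes at 2 of the 197 (limma interaction, 0.254% of all regions tested), hoxb7 and rn18s.

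The largest difference was at hoxb7, a homeobox gene of the HoxB cluster, which patterns the body axis. The region (chr10:5098610-5098950, 341 bp) ended 100 bp upstream of the gene start at 5098510 on the minus strand, with its summit at -143 bp. Its pileup was 22, 13 and 20 in TRα-/- T3, 5, 7 and 7 in TRα-/- control, 187, 284 and 251 in WT T3, and 243, 362 and 443 in WT control. In unscaled pileup the TRα-/- and WT libraries did not overlap, nor did TRα-/- T3 and TRα-/- control, whereas WT T3 and WT control did. It ranked 7360, 7227 and 5618 among all peaks of the TRα-/- control libraries and 16, 22 and 21 among those of the WT control libraries. TRα-/- control was lower than WT control by a log2 difference of -5.18 ± 0.24 (SE, limma adjusted p = 3.52e-18), and TRα-/- T3 was lower than WT T3 by -2.57 ± 0.24 (adjusted p = 3.21e-09). TRα-/- T3 was higher than TRα-/- control by 1.39 ± 0.24 (limma adjusted p = 0.00058). WT T3 was lower than WT control by -1.22 ± 0.24 (limma adjusted p = 0.0123), a call that was lost with replicate 2 or replicate 3 left out. Both genotype differences kept their calls in each setting that included the region.

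The 5 other kept regions within 100 kb of it had smaller genotype gaps in pileup or were missing in some libraries. The nearest, 20426 bp away, had 13, 23 and 35 fragments in TRα-/- T3, 11, 24 and 26 in TRα-/- control, 22, 52 and 56 in WT T3 and 11, 28 and 42 in WT control. A strong region 81748 bp away had 125, 195 and 213 fragments in TRα-/- T3, 88, 148 and 150 in TRα-/- control, 178, 278 and 327 in WT T3 and 61, 177 and 255 in WT control. In both, TRα-/- and WT libraries overlapped. At 49356 bp the pileup was 13, 7 and 13 in TRα-/- T3, 10, 12 and 13 in TRα-/- control, 27, 26 and 46 in WT T3 and 12, 11 and 28 in WT control. Unscaled WT T3 values thus lay above those of TRα-/- T3. Gene-start regions with a peak had median pileups of 9, 16 and 17 in WT T3 and 7, 8 and 9 in TRα-/- T3. A weak region at 24799 bp had a peak in 1 TRα-/- library, of 8 fragments in control replicate 2, and in 5 WT libraries, of 13 and 15 fragments in T3 replicates 2 and 3 and of 2, 6 and 10 in control. The region at 83528 bp had a peak in 10 libraries, with 3 to 17 fragments. Of 17 Hox genes with a listed start, hoxb7 was the single one with a gene-start region (5.88%, against 5.52% of all 13144 genes with a listed start).

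The region at rn18s, the gene for 18S ribosomal RNA, behaved otherwise (chr7:88495266-88496851, 1586 bp). It reached over the start, but its summit was at -1129 bp. Its pileup was 73, 90 and 125 in TRα-/- T3, 19, 26 and 27 in TRα-/- control, 40, 50 and 67 in WT T3, and 23, 68 and 71 in WT control. In unscaled pileup all 3 TRα-/- T3 libraries were above all others. TRα-/- T3 was higher than TRα-/- control by 1.95 ± 0.21 (limma adjusted p = 8.8e-08) and higher than WT T3 by 1.94 ± 0.21 (limma adjusted p = 7.15e-08). Ribosomal RNA genes occur in many near-identical copies, so this value may collect reads of several copies.

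MGC147242 and hspa5 were lower in TRα-/- T3 than in WT T3. At MGC147242 (chr9:80139029-80139531, summit at -252 bp) the pileup was 19, 14 and 21 in TRα-/- T3, 24, 63 and 46 in TRα-/- control, 68, 131 and 115 in WT T3, and 22, 74 and 98 in WT control. Each TRα-/- T3 library was below every library of the other groups in unscaled pileup. After centring, the log2 difference of TRα-/- T3 was -1.16 ± 0.23 against TRα-/- control (limma adjusted p = 0.00316). Against WT T3 it was -1.36 ± 0.23 (limma adjusted p = 0.000496). Both calls were lost without replicate 2, the first of them also without replicate 3. At hspa5, which encodes the endoplasmic reticulum chaperone BiP (chr8:10424230-10424913, summit at -1027 bp), the pileup was 9, 9 and 16 in TRα-/- T3, 5, 13 and 25 in TRα-/- control, 35, 74 and 72 in WT T3, and 19, 18 and 40 in WT control. The difference between TRα-/- T3 and WT T3, -1.20 ± 0.31 (limma adjusted p = 0.0418), was lost with quantile normalization and without TRα-/- T3 replicate 1, and with replicate 2 or 3 left out. The other 3 regions lower in TRα-/- control than in WT control, at LOC100491289, LOC105948215 and LOC108647452, had log2 differences of -1.07, -0.98 and -0.63 (limma adjusted p = 0.042, 0.0164 and 0.0323). Without WT control replicate 3 the count of such regions was 1 instead of 4, and over all 3944 regions tested it was 20 instead of 59.

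**Figure D5:**
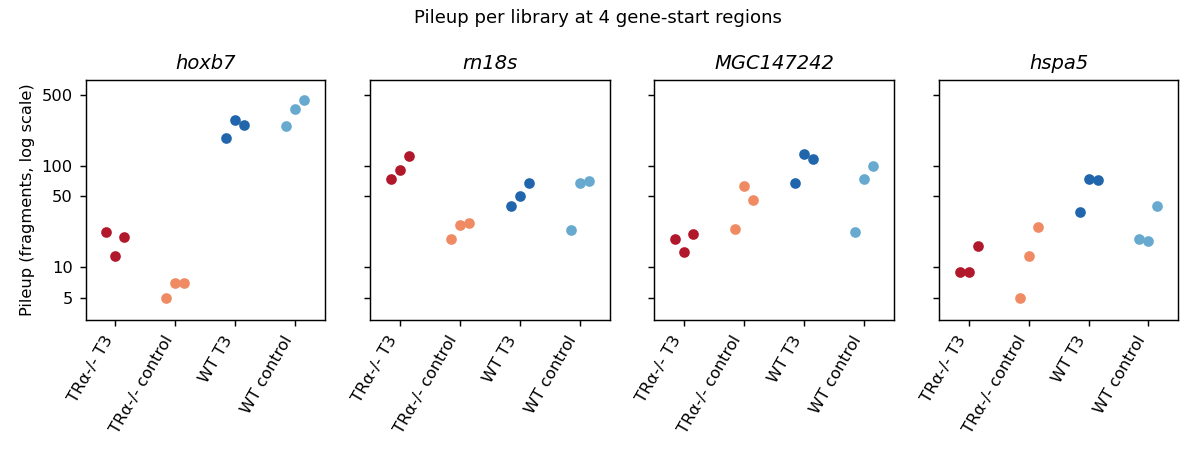
Pileup in fragments (log axis) at the gene-start regions of hoxb7, rn18s, MGC147242 and hspa5; each point is 1 library, in the order TRα-/- T3, TRα-/- control, WT T3 and WT control. At hoxb7 the TRα-/- libraries lie between 5 and 22 and the WT libraries between 187 and 443, at rn18s the TRα-/- T3 libraries lie above all others, and at MGC147242 they lie below all others.

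Of the gene-start regions that every library had, or5as1 ranked best, with a median rank of 21.5. It is an olfactory receptor gene, and the region (chr3:134710518-134711217) had its summit at -506 bp. Its pileup was 138, 183 and 198 in TRα-/- T3, 127, 178 and 191 in TRα-/- control, 196, 294 and 372 in WT T3, and 95, 211 and 284 in WT control. It was followed by prdm4, a zinc finger protein gene (median rank 55.5), and nop2, which encodes a methyltransferase of ribosomal RNA (85.5). At prdm4 the pileup was 82, 106 and 133 in TRα-/- T3, 70, 108 and 89 in TRα-/- control, 102, 197 and 198 in WT T3, and 49, 134 and 208 in WT control. At nop2 it was 61, 86 and 106 in TRα-/- T3, 63, 104 and 99 in TRα-/- control, 112, 208 and 239 in WT T3, and 47, 126 and 163 in WT control. Each group overlapped at least one other at these 3 genes, and none of the 3 was called in any comparison. The next that have a gene symbol of their own, passing over LOC and MGC names, were trnas-gcu (median rank 116), cela3b, named for a digestive elastase (166.5), tbkbp1, an adaptor of the TBK1 kinase (217.5), kcnj3, an inwardly rectifying potassium channel (218.5), hoxb7 (245), dennd5b, a Rab exchange factor (268.5), and trnat-agu (332). Of the 25 best ranked regions, 8 lay within 2 Mb of a chromosome end and 13 within 5 Mb.

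Of 32 T3 response genes with a listed start, 2 had a region there (6.25%, against 5.52% of 13144 genes). The first was thrb, which encodes TRβ and is directly induced by T3 (chr6:77217418-77217880). Its region covered the start, with the summit at -8 bp. It had a peak of 16 fragments in TRα-/- T3 replicate 3, peaks of 11 and 5 in TRα-/- control replicates 2 and 3, peaks of 14 and 40 in WT T3 replicates 1 and 3, and peaks of 11, 12 and 16 in WT control. It was complete in WT control alone, and in WT T3 only replicate 2 was without a peak. By PCR on its ChIP samples before sequencing, the study found TR at the TRβ response element. There, binding rose with T3 in WT and was reduced in TRα-/-. The second was hhip, which encodes an inhibitor that captures hedgehog ligands (chr1:49487033-49489291, 2259 bp, summit at -1869 bp). It had 4 fragments in TRα-/- T3 replicate 2, 3 and 6 in TRα-/- control replicates 1 and 3, 7, 12 and 13 in WT T3, and 5 and 11 in WT control replicates 2 and 3. Among the genes named in the study's ChIP-Seq text, the starts of thibz, shh, cdon, ptch1, cdk1, ccna1, ccna2, atp6v1b2 and foxo1 were listed but had no kept region within 1 kb, and a start of muc3a was not listed. Binding farther from the start or within these genes is not counted here, whereas the study assigned peaks to genes over a wider span.

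Counts for cell cycle and apoptosis genes were small. Of 68 cell cycle genes with a listed start, 7 had one (10.3%, against 5.52% of all genes with a listed start). Complete sets of peaks were found at 2 of the 68 in TRα-/- T3 (2.94%, against 2.15% of all genes), 4 in TRα-/- control (5.88%, against 2.77%), 6 in WT T3 (8.82%, against 4.52%) and 3 in WT control (4.41%, against 3.20%). At cdc27, a subunit of the anaphase-promoting complex, all 12 libraries had a peak, and at skp2, the ubiquitin ligase subunit that removes a CDK inhibitor, 11 had. At cdk6, a kinase of G1 phase, there was no peak in TRα-/- T3, 3, 3 and 4 fragments in TRα-/- control, 7, 9 and 7 in WT T3, and 7 and 6 in WT control replicates 2 and 3. The other genes were ywhab, ccnh, aurkb and rbl1. The starts of cdc27, ywhab, rbl1 and aurkb lay 5 to 10 Mb from a chromosome end, where 11.6% of all listed starts had a region. Those of skp2, cdk6 and ccnh lay farther in. Of 20 apoptosis genes, 4 had a region, against 5.52% of all genes. They were fadd, the adaptor of death receptors, with a peak in all 12 libraries, parp1, a DNA repair enzyme that caspases cleave, with 11, and the death receptors fas and tnfrsf1a, with 10 and 8. All 4 starts lay within 10 Mb of a chromosome end, where 11.6% to 20.8% of all listed starts had a region. No list was matched for this distance, and its part in the counts was not tested. At fadd the pileup was 12, 16 and 32 in TRα-/- T3, 14, 20 and 20 in TRα-/- control, 23, 44 and 49 in WT T3 and 11, 30 and 40 in WT control. Of both lists only cdc27 and fadd had the peak in every library that the limma test needs, and neither was called in any comparison.

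The other lists are short, and their counts stand against 5.52% of all genes. A region was found at 3 of 35 cytoplasmic ribosomal protein genes (rpl35, rpl17 and rps29), 2 of 30 respiratory chain genes (cox6b1 and cox6c), 1 of 26 translation initiation factor genes (eif3j), 1 of 17 spliceosome genes (u2af1), 2 of 75 microRNA genes (mir30d and mir7-3), 2 of 44 Fox, Sox and Gata genes (foxj2 and foxd1), 1 of 33 nuclear receptor genes (thrb) and 1 of 32 hedgehog genes (hhip). No region was counted at 15 genes of the larval absorptive epithelium, 11 connective tissue markers, 6 muscle markers, 17 proteasome genes and 13 histone genes. The region of foxd1, a forkhead factor of mesenchyme, was complete in WT control alone. It had no peak in TRα-/- T3, 6 fragments in TRα-/- control replicate 2, 18 in WT T3 replicate 3, and 4, 5 and 7 in WT control.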

How the data were processed

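TR ChIP-Seq peak lists of 12 libraries were used, 3 technical replicates of each of 4 ChIP DNA samples. The authors aligned reads to Xenbase v9.1 with Bowtie2 2.3.4.1, used samtools to drop redundant reads, and ran MACS2 2.1.1.20160309 on each library by itself at a q-value under 0.05. For each peak the authors deposited the pileup signal in fragments, not scaled to depth, the fold enrichment as a ratio over local background, and the −log10 p-value and −log10 q-value. Without read totals, depth and its precision are unknown, and pileup is comparable between libraries only after centring.

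Peaks were reduced to 1 row each and joined. Ranks are by −log10 p. The regions and gene lists were chosen with earlier results of these data known. Named genes were the 10 best ranked regions with a peak in all 12 libraries and a gene symbol of their own, up to 5 separated or called regions per comparison and direction, genes of the lists and genes of the study's ChIP-Seq text. By this rule LOC names, and also MGC names, were passed over for rank and separation, and kept where limma called them. Biotypes came from the RefSeq table of UCB_Xtro_10.0, which holds 89.4% of the gene IDs, without its coordinates. Tools were Python 3.11.15, numpy 2.4.6, pandas 2.3.3, R 4.3.3 and limma 3.58.1, with Benjamini-Hochberg adjustment. A test of peak presence against other regions was planned and run, but only its values are given, since presence chose the regions. On simulated data for TRα-/- T3 against TRα-/- control, over 3944 regions, limma recovered 45 of 100 regions changed 2-fold and 94 of 100 changed 4-fold, with 6 false calls.

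The labels do not say whether replicate numbers pair libraries. Correlations of deviations in pileup between conditions were 0.1005 to 0.137 for replicate 1 and 0.00798 to 0.0821 for replicates 2 and 3. For the share of peaks at gene starts, over 3 libraries, they ran from -0.990 to 0.945. This does not settle the pairing, and libraries were not paired in the main tests. Alternatives were a stricter −log10 q (5), the 17414 strongest peaks of each library, 50% overlap, 2 of 3 replicates, each replicate left out, a window of 500 bp, midpoints or summits within 1 kb, quantile normalization, log2(pileup + 4), a pileup of at least 8, the replicate block and, chosen after the data were seen, TRα-/- T3 replicate 1, WT control replicate 3 or tRNA and rRNA starts left out. Sequence motifs in promoters were not searched because no sequence was at hand. One region that the naming rule selects is not reported here.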

Additional observations from a re-analysis of the deposited data

Results flagged for a closer look

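At 2 of the 197 gene-start regions with a peak in all 12 libraries, the response to T3 differed between the genotypes (limma interaction, fitted over 3944 regions after the values were seen; 0.254% of all regions tested were called). At hoxb7 the log2 difference between T3 and control was 1.39 in TRα-/- and -1.22 in WT, which differ by 2.61 ± 0.34 (SE, limma adjusted p = 4.76e-06). All 3 TRα-/- T3 libraries were above all 3 TRα-/- control libraries. Uncentred WT pileup was 187 to 284 with T3 and 243 to 443 without, so the WT libraries overlapped before centring. At rn18s the difference between T3 and control was 1.95 in TRα-/- and -0.62 in WT, which differ by 2.57 ± 0.30 (SE, limma adjusted p = 4.94e-07). The T3 difference in WT was not past the threshold by itself at rn18s (limma adjusted p = 0.803). Groups of 3 libraries were too small for a test of single outlying libraries.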

How the results depend on the processing

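The direction of the 4 differences in the share of peaks at gene starts was kept in each setting run, but their exact permutation p, 0.1 as reported, reached 0.9 with equal numbers of peaks and 0.3 at the stricter q, with the 500 bp window and by summit. The replicate block gave the same differences of 0.245, 0.483, -0.156 and -0.394 points with an exact sign-flip p of 0.25. With a −log10 q of at least 5 there were 356 gene-start regions, with 135, 143, 327 and 174 complete in TRα-/- T3, TRα-/- control, WT T3 and WT control. A 500 bp window left 434 (173, 214, 356 and 259), midpoints within 1 kb left 433 (142, 189, 346 and 242), and 2 of 3 replicates gave 1503 (558, 703, 1111 and 941). Leaving out replicates, which by construction asks for 2 peaks instead of 3, gave 799 to 1145 regions, and 426 to 746 complete in WT control.

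Separated regions moved most. Counts over all kept regions stand in brackets, of 7297 at the stricter q, 10319 with equal numbers of peaks, 15365 with 500 bp or midpoints and 29981 with 2 of 3 replicates. In TRα-/- T3 against TRα-/- control, higher and lower, they numbered 2 and 9 with the 500 bp window (96 and 331) and 2 and 8 by midpoint (96 and 331). With 2 of 3 replicates they were 53 and 139 (1024 and 3084), and with equal numbers of peaks 10 and 9 (182 and 135). They were 5 and 2 at the stricter q (70 and 101), and 34 and 30 without TRα-/- T3 replicate 1 (585 and 483). In WT T3 against WT control they numbered 10 and 1 at the stricter q (298 and 15) and 18 and 3 with 500 bp (418 and 129). With 2 of 3 replicates they were 174 and 98 (2996 and 2262), and 20 were higher with equal numbers (354). In TRα-/- control against WT control they numbered 1 and 18 at the stricter q (23 and 246) and 4 and 21 with 500 bp (106 and 544). With 2 of 3 replicates they were 71 and 200 (1768 and 4186), and 5 were higher by midpoint (106). In TRα-/- T3 against WT T3 they numbered 0 and 41 with 500 bp (24 and 1507) and 0 and 49 by midpoint (24 and 1507). With 2 of 3 replicates they were 27 and 350 (443 and 6314), and with equal numbers 2 and 37 (55 and 562). At the stricter q 2 were higher (4). With libraries left out, 16247 to 23948 regions were kept. In the same order of comparisons, the ranges were first 6 to 44 higher (95 to 814) and 20 to 81 lower (331 to 1824). Next came 31 to 144 (419 to 2291) and 6 to 64 (130 to 1457), then 8 to 52 (106 to 1190) and 32 to 156 (545 to 3267). The last were 1 to 19 (23 to 324) and 86 to 256 (1502 to 4832).

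Against other kept regions, the stricter q gave 1.08 points for presence, -0.17 for rank and 1.42 bp for width. Midpoints within 1 kb gave -84.0 bp for width (exact sign-flip permutation p = 0.000488, the smallest that 12 libraries allow). The 12 libraries are technical replicates of 4 ChIP samples. By midpoint, wide regions that reach a start only by their edge count among the others, so the rule bears on this width. Leaving out replicates gave -16.9 to -5.09 bp. Means of the 4 ChIP samples kept -1.89 points for presence, a description since presence chose the regions, and -1.45 points for rank. The rank difference had an exact permutation p of 0.125, the smallest that 4 samples allow.

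Counts of pileup calls were small. Brackets hold the counts over all regions tested. The replicate block, over 3944 regions, gave 2 lower in TRα-/- T3 against TRα-/- control (31) and 5 lower in TRα-/- T3 against WT T3 (43). It gave 2 higher in TRα-/- control against WT control (42). Whether the numbers pair the libraries is not known. Quantile normalization gave 1 higher in TRα-/- control against WT control (33). A pileup of at least 8 everywhere left 1438 regions to test. With it, 2 were higher and 2 lower in TRα-/- control against WT control (30 and 45). In TRα-/- T3 against WT T3, 2 were higher (17), and in WT T3 against WT control 0 were lower (1). Without single replicates, 3944 to 6178 regions were tested. The ranges were 0 to 1 lower in TRα-/- T3 against TRα-/- control (0 to 24) and 1 to 5 lower in TRα-/- T3 against WT T3 (4 to 38). In TRα-/- control against WT control they were 0 to 1 higher (1 to 33) and 1 to 5 lower (9 to 85). In WT T3 against WT control the range was 0 to 1 lower (1 to 5). Uncalled differences changed sign at MGC147242 in TRα-/- control against WT control (0.0089 without WT control replicate 3, and -0.11 to 0.12 with replicates left out) and in WT T3 against WT control (-0.049 to 0.37), and at hspa5 in TRα-/- T3 against TRα-/- control (-0.49 to 0.15). The causes were not tested.

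The unknown depth limits all statements on absent peaks. With 1 ChIP sample per condition, differences between conditions cannot be told apart from differences between immunoprecipitations.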
